A study of Danio rerio with 6 samples.

Results

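The genes described here encode factors that assemble the large (60S) ribosomal subunit, together with abundant proteins of the nucleolus, the nuclear body where ribosomes are built. They were taken by symbol from a list of 47 genes, of which 46 were present among the 21392 genes in the file of translation efficiencies, and all 46 were above 0 in every library. The remaining gene, brix1, was absent under that symbol. Translation efficiency is the level of a gene's ribosome footprints, which are stretches of mRNA shielded from nuclease by a ribosome, divided by the level of its mRNA.

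The study set mycn mutant zebrafish embryos beside wild-type embryos of the AB strain, both collected 72 h after fertilization from embryos kept in Danieau buffer. Each genotype gave 2 Ribo-seq samples and 1 RNA-seq sample. The mutant allele, its zygosity, the number of embryos in a sample and the strain background of the mutants are not given in the sources used here. Whole embryos were dissociated, so the values average over all tissues, and a ratio cannot tell a change within cells from a change in the mixture of cells. The ratio of mycn itself was 0.446 and 0.302 in wild-type replicates 1 and 2 and 0.429 and 0.342 in mutant replicates 1 and 2, which, being relative to its mRNA, does not check the genotype. The series title places the work on intestinal development and ribosome biogenesis in a model of Feingold syndrome, a human disorder caused by mutation of MYCN.

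Large subunits begin in the nucleolus as pre-ribosomal RNA that is folded, cut and chemically modified while ribosomal proteins are added. Helicases, GTPases and AAA ATPases drive the successive rearrangements and strip off factors whose work is done, after which the particle is exported and matured in the cytoplasm. Myc proteins are transcription factors, and many genes of ribosome assembly are known as their transcriptional targets in vertebrates, which concerns mRNA level. The values below describe the step after that, footprints per mRNA.

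Translation efficiency of these factors lay below that of most genes, and no single factor passed the test between genotypes. The median over the 46 genes was 0.594 and 0.581 in wild-type replicates 1 and 2 and 0.598 and 0.550 in mutant replicates 1 and 2. Over the 17601 genes above 0 in all libraries, which were the genes tested, the library medians ran from 0.762 to 0.779. In wild-type replicates 1 and 2, 31 and 35 of the 46 factors were below their library's median, and in mutant replicates 1 and 2, 38 and 36 were. No factor passed limma's test at an adjusted p of 0.05, against a background of 0% (0 of 17601 genes). At an unadjusted p under 0.05 limma marked 3 factors higher in mutants (background 6.78% of genes) and 3 lower (background 4.71%), which is 13.0% of the factors in either direction against 11.5% of all genes. These 6 were nsa2, ddx21 and nolc1 on the higher side and rrp8, mrto4 and nmd3 on the lower side, and the shares are close to the background.

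**Figure D1:**
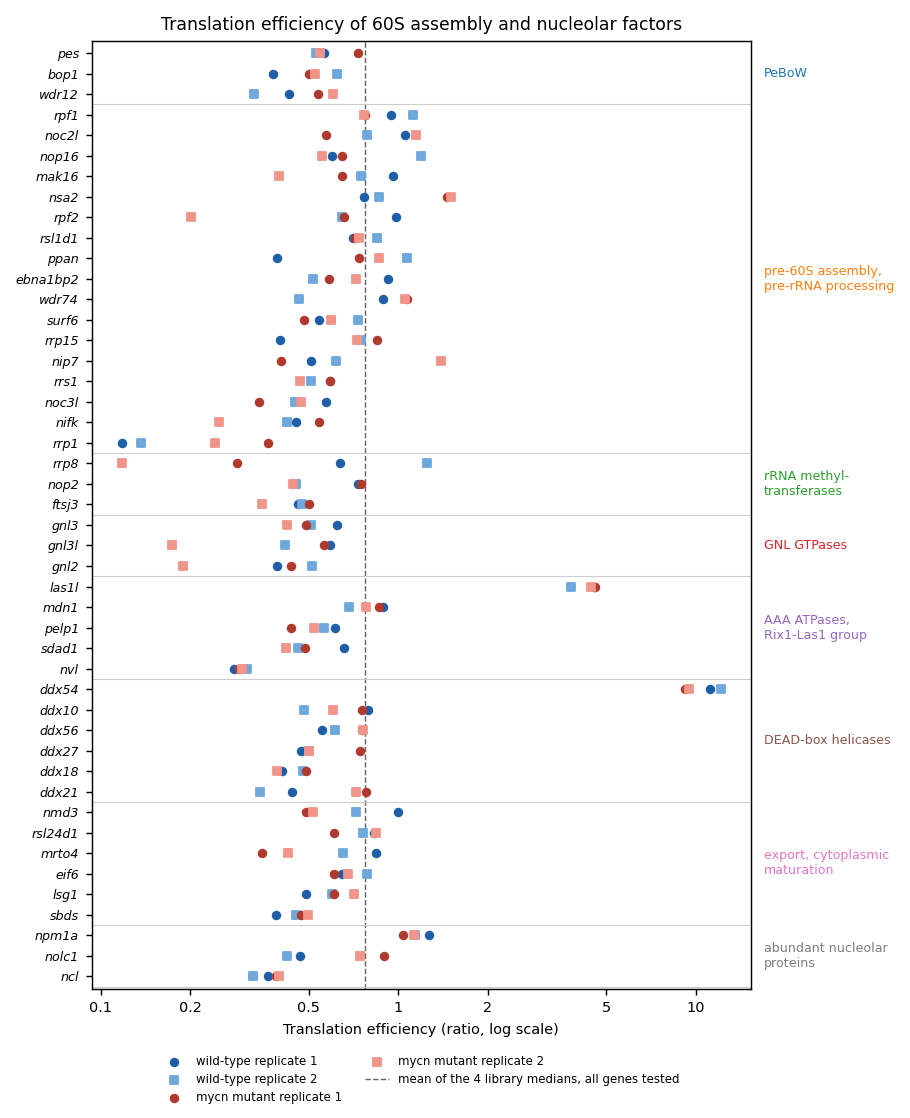
Translation efficiency (ratio, log axis) of each of the 46 factors in the 4 libraries, grouped by role and ordered within a role by the wild-type mean. Circles and squares are replicates 1 and 2, blue is wild type and red is mycn mutant, and the dashed line is the mean of the 4 library medians over all genes tested. Most factors lie left of the line, whereas ddx54 and las1l stand far to the right in all 4 libraries and rrp1 far to the left in wild type.

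The precision behind a ratio differs from gene to gene, and the files give no depth. Some values recur for another gene within a library (compared to 9 significant digits), as a ratio of small whole numbers would, though the counts behind them are not known. Such repeated values occurred in all 4 libraries for 15 of the 46 factors (32.6%, against 38.4% of all genes tested) and in none for 7 factors (15.2%, against 14.9%), namely nsa2, ncl, npm1a, rsl24d1, las1l, sdad1 and ddx54. The median gap between replicates for the 7 was 0.147 in wild type and 0.0466 in mutants, and for the 15 it was 0.380 and 0.250. The median gap on the same log2(value + 0.1) scale was 0.246 in wild type and 0.204 in mutants for all 46 factors, and 0.298 and 0.309 for all genes tested. Across the 46 factors, Pearson's r of log2 values was 0.875 for the wild-type pair of libraries, 0.850 for the mutant pair and 0.743 to 0.825 for pairs of unlike genotype. Without las1l and ddx54, whose high ratios carry much of that agreement, r over 44 factors was 0.610, 0.612 and 0.310 to 0.410. Genes are not independent replicates, and libraries of a genotype may share the same mRNA measurement, since each genotype has 1 RNA-seq sample. An error in that measurement would then move both libraries of a genotype together and is not part of the standard errors below.

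The question of the comparison is whether mRNAs of large-subunit assembly carry more or fewer ribosomes in the mutants, relative to other mRNAs of the same library. The column headers name FPKM, a level scaled to the total of its library, so a change shared by all mRNAs would not show. Fold changes are limma's, mutant minus wild type on the log2(value + 0.1) scale, two-sided with Benjamini-Hochberg adjustment over all 17601 genes. The median log2 fold change of the 46 factors was -0.064, with 20 higher and 26 lower, beside a median of 0.013 over all genes tested. The middle of the distribution, from the lower to the upper quartile, ran from -0.26 to 0.23, and over all genes from -0.27 to 0.33. Without mycn mutant replicate 2 the median was 0.059, with 24 higher and 22 lower, so that library sets its sign. The groups did not overlap, with both mutant libraries on the same side of both wild-type libraries, for 19 factors (41.3%, background 44.8%), 10 of them above (21.7%, background 23.1%) and 9 below (19.6%, background 21.6%). These shares are no higher than the background, and the sign held whichever library was left out in 28 of the 46 factors (60.9%, against 57.5% of all genes tested).

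**Figure D2:**
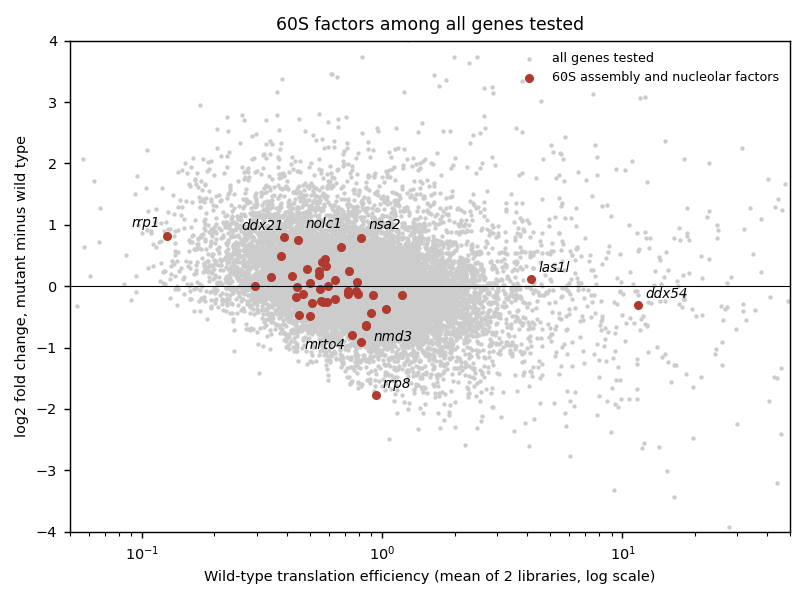
Log2 fold change (mutant minus wild type) against the wild-type mean translation efficiency (log axis) for all genes tested (grey) and for the 46 factors (red), with 82 genes outside the plotted range. The factors lie within the cloud of all genes at their level, from -1.78 for rrp8 to 0.81 for rrp1.

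Among the factors that join the particle in the nucleolus or process its RNA, 17 were measured. In mutants 6 of them were higher and 11 lower, and the median log2 fold change was -0.081. Over fits that left out 1 library this median ran from -0.21 to -0.015. Nsa2, a protein of nuclear pre-60S particles known from yeast, was at 0.769 and 0.862 in wild type and at 1.46 and 1.50 in mutants. Both mutant libraries were well above both wild-type libraries, and none of the 4 values was a repeated one. The means were 0.816 ± 0.0658 (SD, n = 2) and 1.48 ± 0.0300, a log2 fold change of 0.79 (SE 0.192, limma adjusted p = 0.338), the smallest p among the 46. When only the 2626 genes without repeated values were fitted, the adjusted p of nsa2 from limma was 0.0510, just short of the threshold. Small p-values were more common in that fit. There limma gave 511 of the 2626 genes an unadjusted p under 0.05 and 36 passed, against 2023 of 17601 and 0 in the main fit. Over the fits that kept all 4 libraries the adjusted p of nsa2 from limma ran from 0.0510 to 0.445.

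Rrp1, a homolog of a yeast protein needed to process the large-subunit RNA, had the lowest wild-type level of the group. It was at 0.118 and 0.137 in wild type and at 0.365 and 0.241 in mutants. Its wild-type mean of 0.127 ± 0.0136 (SD, n = 2) lay at percentile 0.250 of all genes tested. The percentile is the share of genes, the gene itself included, with a wild-type mean at or below its own. The log2 fold change of rrp1 was 0.81 (SE 0.296, limma adjusted p = 0.435). Groups did not overlap, but 3 of the 4 values were repeated ones.

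Wdr74, the counterpart of yeast Nsa1 and a partner of the ATPase Nvl, was at 0.885 and 0.462 in wild type and at 1.07 and 1.05 in mutants, with a log2 fold change of 0.64 (SE 0.335, limma adjusted p = 0.553). Its wild-type replicates differed widely, and the log2 fold change was 0.24 without wild-type replicate 2 and 1.05 without wild-type replicate 1. Mak16 went the other way, from 0.956 and 0.747 to 0.648 and 0.398, with a log2 fold change of -0.63 (SE 0.293, limma adjusted p = 0.513) that was -0.34 without mutant replicate 2. Rpf1, which carries the Brix domain found in several assembly factors, was at 0.946 and 1.12 in wild type and at 0.773 and 0.769 in mutants, a log2 fold change of -0.37 (SE 0.197, limma adjusted p = 0.555). Neither mak16 nor rpf1 had overlapping groups, and neither passed. All 4 values of wdr74, all 4 of mak16 and 1 of rpf1 were repeated ones.

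Rpf2 and Rrs1 together bring the 5S ribonucleoprotein into the particle. Rpf2 was at 0.979 and 0.646 in wild type and at 0.655 and 0.201 in mutants, so that mutant replicate 2 alone was low and the groups overlapped. Rrs1 was at 0.588 and 0.508 against 0.590 and 0.466, also with overlapping groups. In the remaining nucleolar factors the groups overlapped as well, and several of them varied more between replicates than between genotypes. Ppan, the vertebrate counterpart of the yeast Ssf proteins, was at 0.393 and 1.07 in wild type and at 0.739 and 0.860 in mutants. Nip7, which takes part in pre-rRNA processing, was at 0.507 and 0.619 against 0.404 and 1.39, and nop16 at 0.600 and 1.19 against 0.645 and 0.555. All values of rpf2, rrs1, ppan, nip7 and nop16 were repeated ones.

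The other members of this group had overlapping groups too. Rsl1d1, a nucleolar protein with a domain like that of ribosomal protein L1, was at 0.704 and 0.849 in wild type and at 0.714 and 0.739 in mutants. Surf6 was at 0.541 and 0.734 against 0.482 and 0.592, and noc3l, which pairs with Noc2l, at 0.573 and 0.450 against 0.341 and 0.471. All 3 had mutant means below the wild-type means by less than the gap between the wild-type replicates. Noc2l itself was at 1.05 and 0.786 in wild type and at 0.570 and 1.15 in mutants, so the mutant libraries fell on either side of the wild-type ones. Ebna1bp2 was at 0.926 and 0.515 against 0.587 and 0.721, rrp15 at 0.401 and 0.749 against 0.846 and 0.728, and nifk, which binds the proliferation marker Ki-67, at 0.453 and 0.421 against 0.540 and 0.249. No direction can be read from these 4. The gene bxdc2, whose human counterpart carried the symbol BXDC2 before it became BRIX1, was in the file but is not counted above. It was at 0.274 and 0.504 in wild type and at 0.476 and 0.585 in mutants, with overlapping groups.

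The PeBoW complex of Pes, Bop1 and Wdr12 is needed for processing of the large-subunit RNAs, and pes is named after pescadillo, a zebrafish mutant. All 3 subunits had low wild-type levels, at percentiles 9.19 to 25.1 of all genes tested, and all 3 had a log2 fold change above 0. Wdr12 was at 0.429 and 0.327 in wild type and at 0.537 and 0.604 in mutants, a log2 fold change of 0.49 (SE 0.220, limma adjusted p = 0.507). It was the only subunit whose groups did not overlap, and 3 of its 4 values were repeated ones. Pes was at 0.562 and 0.530 against 0.733 and 0.546, and bop1 at 0.379 and 0.622 against 0.502 and 0.524. The log2 fold changes of pes and bop1 were 0.18 (SE 0.222) and 0.059 (SE 0.276), and neither passed. That of pes was -0.00051 without mutant replicate 1 and that of bop1 was -0.24 without wild-type replicate 1, so the common direction rests on single libraries.

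The rRNA methyltransferases held the largest fold change of the 46 factors. Rrp8, whose yeast counterpart methylates a base of the large-subunit RNA, was at 0.635 and 1.24 in wild type and at 0.287 and 0.117 in mutants. Both mutant libraries were below both wild-type libraries, while the replicates of each genotype also differed widely. The means were 0.940 ± 0.431 (SD, n = 2) and 0.202 ± 0.120, a log2 fold change of -1.78 (SE 0.461, limma adjusted p = 0.349), and all 4 values were repeated ones. Nop2, a cytosine methyltransferase, was at 0.732 and 0.452 against 0.746 and 0.442, and ftsj3, the counterpart of yeast Spb1, at 0.461 and 0.475 against 0.503 and 0.349. Their groups overlapped. In each, mutant replicate 1 was above both wild-type values and mutant replicate 2 below both, so no direction can be read.

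The GTPases of the GNL family, whose nucleotide-binding motifs are circularly permuted, all had lower means in mutants, with a median log2 fold change of -0.48. Gnl2, the counterpart of yeast Nog2, was at 0.390 and 0.513 in wild type and at 0.437 and 0.190 in mutants. Gnl3, also called nucleostemin and known from stem and cancer cells of mammals, was at 0.622 and 0.509 against 0.488 and 0.422. Gnl3l, its close relative, was at 0.587 and 0.418 against 0.563 and 0.173. The low values of gnl2 and gnl3l were those of mutant replicate 2 alone, as for rpf2. Only gnl3 had groups that did not overlap, with a log2 fold change of -0.26 (SE 0.210, limma adjusted p = 0.685) that was -0.14 without wild-type replicate 1. Without mutant replicate 2 the changes were -0.030 for gnl2 and 0.15 for gnl3l and the median of the 3 was -0.030, whereas without mutant replicate 1 the median was -0.92. The changes of gnl2 and gnl3l with all libraries were -0.48 (SE 0.385) and -0.49 (SE 0.507), and neither passed.

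Among the AAA ATPases and the proteins around Las1l, levels differed far more between genes than between genotypes. Las1l, the endonuclease that cuts the spacer between the RNAs of the large subunit, was at 4.53 and 3.80 in wild type and at 4.59 and 4.44 in mutants. Its wild-type mean of 4.16 ± 0.516 (SD, n = 2) lay at percentile 97.5 of all genes tested, and its log2 fold change was 0.12 (SE 0.213, limma adjusted p = 0.862). Its direction was the opposite with quantile-normalized values (-0.15) and without wild-type replicate 2 (-0.0049). Pelp1, the scaffold of the complex that acts beside Las1l, was at 0.614 and 0.564 against 0.437 and 0.522. Both mutant values of pelp1 were below both wild-type values, and it did not pass limma's test. Mdn1, a very large dynein-like ATPase that pulls factors off the particle, was at 0.887 and 0.683 against 0.858 and 0.779, and sdad1 at 0.656 and 0.458 against 0.485 and 0.421. Nvl, the counterpart of yeast Rix7, was at 0.280 and 0.309 in wild type and at 0.292 and 0.299 in mutants. Its 4 values were within the replicate spread of each other at a level near the bottom of the group, percentile 4.31 of all genes tested, and its log2 fold change of 0.0057 (SE 0.216) turned after quantile normalization (-0.0084), after median centring (-0.020) and without wild-type replicate 1 (-0.047) or mutant replicate 2 (-0.0071).

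**Figure D3:**
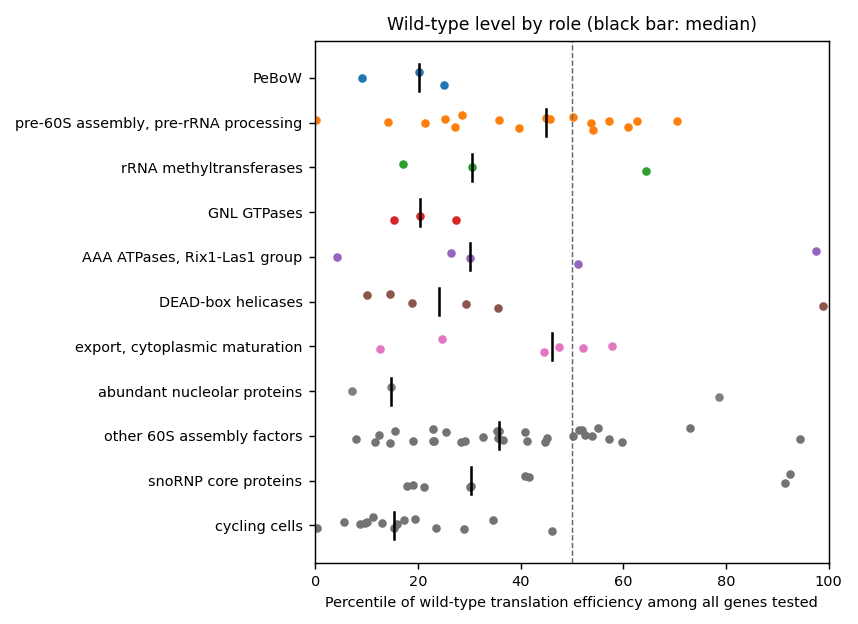
Percentile of the wild-type mean translation efficiency among all genes tested, for each factor by role (coloured points), and for other 60S factors, snoRNP core proteins and cycling-cell genes (grey). Black bars are medians and the dashed line is percentile 50, and 32 of the 46 factors lie left of it.

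DEAD-box helicases remodel RNA with the energy of ATP, and 4 of the 6 measured were higher in mutants and 2 lower. Ddx21, a nucleolar helicase linked in human cells to both rRNA transcription and processing, was at 0.441 and 0.343 in wild type and at 0.779 and 0.718 in mutants. Mutant libraries were clearly the higher ones, with means of 0.392 ± 0.0692 (SD, n = 2) against 0.749 ± 0.0431 and a log2 fold change of 0.79 (SE 0.210, limma adjusted p = 0.350). Ddx56 was at 0.552 and 0.613 against 0.752 and 0.761, a smaller log2 fold change of 0.33 (SE 0.184, limma adjusted p = 0.571). Both lay below the median of all genes in wild type and 2 and 3 of their 4 values were repeated ones.

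Ddx54 had the highest translation efficiency of the 46 factors in every library. It was at 11.2 and 12.1 in wild type and at 9.22 and 9.46 in mutants, and its wild-type mean lay at percentile 98.9 of all genes tested. Both mutant values were below both wild-type values, none of the 4 was a repeated one, and the log2 fold change was -0.31 (SE 0.193, limma adjusted p = 0.594). With quantile-normalized values it was -0.60 (limma adjusted p = 0.398), and over all fits tried the adjusted p ran from 0.159, among genes without repeated values, to 0.899. Ddx27 was at 0.471 and 0.501 against 0.744 and 0.499, and ddx18 at 0.407 and 0.478 against 0.490 and 0.390. Ddx10, whose yeast counterpart serves the small subunit, was at 0.788 and 0.483 against 0.754 and 0.602. Groups overlapped in ddx27, ddx18 and ddx10. Ddx27 had a log2 fold change of 0.28 (SE 0.251), which was 0.032 without mutant replicate 1 and 0.53 without mutant replicate 2. The log2 fold changes of ddx10 and ddx18, 0.11 (SE 0.294) and -0.0088 (SE 0.220), turned to -0.20 and 0.085 without wild-type replicate 2. Without mutant replicate 1 that of ddx10 was -0.034 and the median of the 6 helicases was -0.0010 in place of 0.19, and without mutant replicate 2 that of ddx18 was 0.13.

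Of the 6 factors of export and cytoplasmic maturation, 2 were higher and 4 lower. Their median log2 fold change was -0.14, and 0.0021 without mutant replicate 1. Nmd3, the adaptor that links the particle to the export receptor Crm1, was at 0.994 and 0.722 in wild type and at 0.490 and 0.516 in mutants. Mrto4, which holds the place of the stalk protein P0 until late maturation, was at 0.841 and 0.652 against 0.348 and 0.427. In both genes the mutant libraries were below the wild-type ones without overlap, with log2 fold changes of -0.65 (SE 0.231, limma adjusted p = 0.423) for nmd3 and -0.79 (SE 0.229, limma adjusted p = 0.367) for mrto4. All 4 values of mrto4 and 2 of nmd3 were repeated ones.

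The other 4 factors of this role were as follows. Lsg1, the GTPase that releases Nmd3 in the cytoplasm, was at 0.489 and 0.597 against 0.608 and 0.708, a log2 fold change of 0.24 (SE 0.209, limma adjusted p = 0.706). Sbds, mutated in human Shwachman-Diamond syndrome, was at 0.389 and 0.453 against 0.471 and 0.496, a change of 0.17 (SE 0.198, limma adjusted p = 0.787). In both genes the mutant libraries were the higher ones, by about the size of the standard error. All 4 values of sbds and 2 of lsg1 were repeated ones. Eif6, which keeps immature large subunits from joining small ones until Sbds helps to evict it, was at 0.649 and 0.785 against 0.608 and 0.677, and rsl24d1, the placeholder for a ribosomal protein added in the cytoplasm, at 0.827 and 0.763 against 0.606 and 0.840. The groups overlapped in eif6 and rsl24d1, with log2 fold changes of -0.13 (SE 0.203) and -0.14 (SE 0.233), the latter turning to 0.072 without mutant replicate 1.

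The abundant nucleolar proteins, which have wide functions, differed from each other in level. Npm1a, nucleophosmin, was at 1.27 and 1.14 in wild type and at 1.04 and 1.13 in mutants, and ncl, nucleolin, at 0.366 and 0.324 against 0.387 and 0.396. They lay at percentiles 78.6 and 7.08 of all genes tested, with log2 fold changes of -0.14 (SE 0.196) and 0.14 (SE 0.203), and although neither had overlapping groups, neither passed (limma adjusted p = 0.819 for each). Nolc1, a chaperone of the small nucleolar ribonucleoproteins that modify rRNA, was at 0.468 and 0.423 in wild type and at 0.893 and 0.744 in mutants. Its mutant libraries were well above the wild-type ones, with means of 0.445 ± 0.0315 (SD, n = 2) against 0.818 ± 0.105 and a log2 fold change of 0.75 (SE 0.201, limma adjusted p = 0.357).

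**Figure D4:**
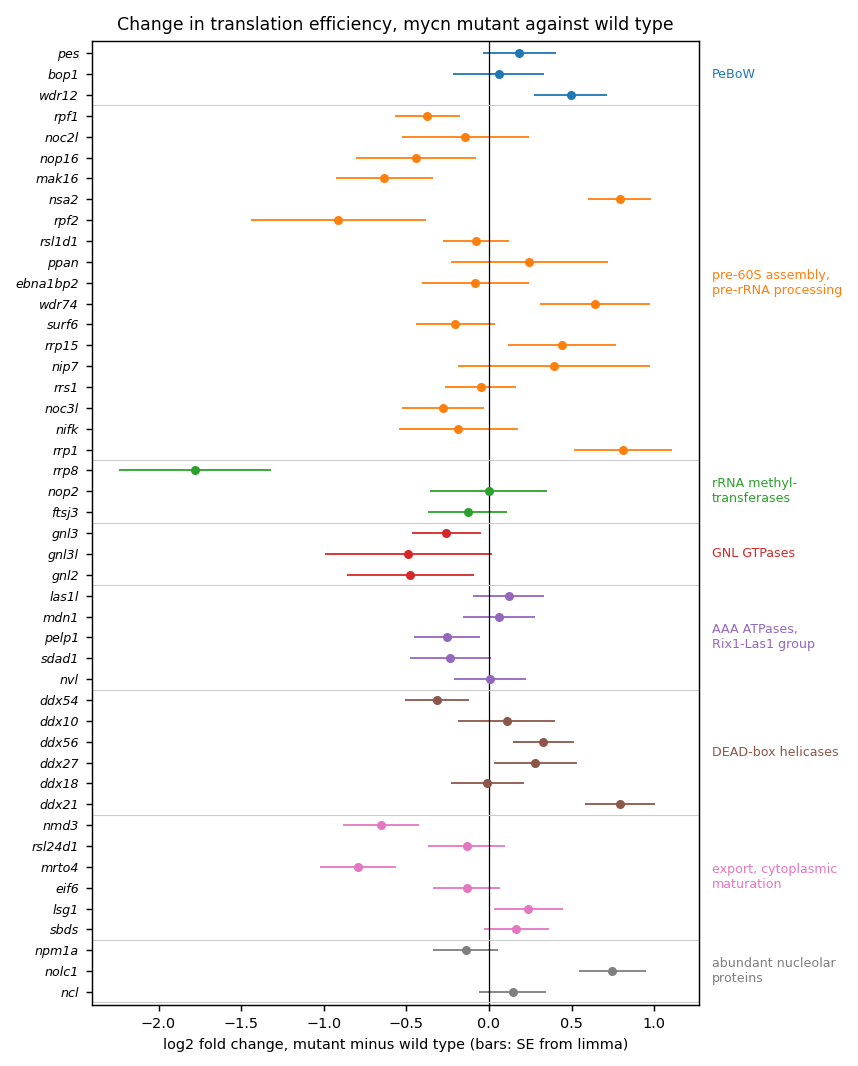
Log2 fold change in translation efficiency (mutant minus wild type, on the log2(value + 0.1) scale) for each of the 46 factors by role, with bars of 1 SE from limma. Rrp8 at -1.78 lies farthest from 0. Next on the lower side are rpf2, whose groups overlapped, and mrto4 at -0.79. On the higher side nsa2, ddx21, nolc1 and rrp1 lie between 0.75 and 0.81. No factor passed the adjusted threshold.

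In level, these factors resembled other genes of the same pathway. The wild-type mean lay below percentile 50 for 32 of the 46 factors (69.6%), with a median percentile of 29.8, and only ddx54, las1l and npm1a lay above percentile 75. Of 31 other large-subunit factors above 0 in all libraries, from 33 listed, 21 lay below percentile 50 (median 35.9), as did 7 of 9 core proteins of the small nucleolar ribonucleoproteins (median 30.4). Genes of cycling cells were lower still as a group, with 15 of 15 below percentile 50 and a median percentile of 15.3. Those of the MCM helicase lay at percentiles 5.65 to 17.2, whereas the replication clamp gene pcna lay at 46.2. These are descriptions of chosen lists, with no test between them.

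The other pathway genes gave no calls either. Of the 31 other large-subunit factors, 17 were higher and 14 lower. The median log2 fold change was 0.053, and none passed at an adjusted p of 0.05. With limma 1 of the 31 had an unadjusted p under 0.05, against 11.5% of all genes, so the share is no higher than the background. That gene, named after its values were seen, was pwp1, which takes part in large-subunit assembly, at 0.549 and 0.550 in wild type and at 0.210 and 0.301 in mutants (log2 fold change -0.88, SE 0.235, limma adjusted p = 0.352). Of the 9 ribonucleoprotein proteins 2 were higher and 7 lower, with a median of -0.051. Of the 9, 1 had an unadjusted p under 0.05 with limma, beside the same 11.5% of all genes. It was snu13a, likewise named after its values were seen, a protein of box C/D particles, at 1.74 and 1.98 against 0.922 and 1.27. Its paralog snu13b was at 0.616 and 0.763 against 0.950 and 1.17, and how reads shared by such copies were counted is unknown. Markers of the exocrine pancreas mostly had higher translation efficiency in the same mutant libraries. Of 15 listed, 8 were above 0 in all libraries and could be tested, and 7 were higher, with a median log2 fold change of 1.56. Their median gap between replicates was 0.236 in wild type and 0.972 in mutants, against 0.298 and 0.309 for all genes tested. In 3 of the 8 all 4 values were repeated ones. Of 11 enterocyte markers listed, 9 could be tested and 8 were higher, with a median of 0.31. The 15 cycling-cell genes had 7 higher, 8 lower and a median of -0.00087. Over all genes tested, 9035 of 17601 were higher. These are ratios to mRNA and give no count of cells. At an unadjusted p under 0.05 limma marked 5 of the 8 pancreas markers, all higher, against 11.5% of all genes. It marked 4 of the 9 enterocyte markers, 3 higher and 1 lower, and 0 of the 15 cycling-cell genes. None of these markers passed limma's adjusted threshold, and their part in the values of the assembly factors was not tested.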

How the data were processed

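The file deposited by the authors holds, per the file headers, values derived from FPKM for each Ribo-seq library, taken here as a ratio. The name of the file gives translation efficiency, whereas the headers give the Ribo-seq library and FPKM and no ratio. Whether the values are footprint FPKM instead was not tested. The sources used here do not say which mRNA sample each ratio was divided by, or whether an offset or filter was used. Tools named in the submitters' processing notes are STAR, featureCounts and limma, with the build GRCz11, and no versions or roles. Depth is unknown, so no counting interval is given.

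Genes above 0 in all 4 libraries were tested with limma (version 3.58.1; R version 4.3.3), mutant against wild type. The fit used log2(value + 0.1), a trended empirical Bayes variance, 2 residual degrees of freedom and a Benjamini-Hochberg threshold of 0.05. Fold changes on this scale understate those of low ratios. Nothing says that replicates came from separate clutches, so the p-values cover only the variation among these libraries, possibly technical. The members, roles and lists were chosen with earlier results of these data known. Fold changes were set to be given for the 12 factors with the smallest p, the 5 highest and 5 lowest in wild type, and 4 role groups. Further factors were given levels only. In simulated data of 17601 genes, limma called 52 of 100 genes changed by a log2 fold of 2. It called 3 of 100 changed by 1. The simulated spread depended only on a gene's level, and no shared error of the mRNA measurement was simulated. These counts may therefore be higher than the real libraries would allow. A planned search of promoters for CACGTG was not run, since no sequence was used here.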

Additional observations from a re-analysis of the deposited data

How the results depend on the processing

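No factor passed limma's adjusted threshold in any fit tried: pseudocounts of 0.01 and 1, quantile normalization, median centring, no filter, genes without repeated values, no trend, the replicate block, and each library left out. Over all genes the count passing was 0 with the settings reported (2023 at an unadjusted p under 0.05), 6 with a pseudocount of 1, 177 with no filter and 36 among the 2626 genes without repeated values, and 0 in the other fits. The median log2 fold change of the factors was -0.14 over the 7 without repeated values and ran from -0.060 to 0.059 when 1 library was left out. Of the 29 factors given a fold change, 21 kept their sign in every fit that held them, including the 6 with an unadjusted p under 0.05. The groups of these 6 did not overlap, so leaving out 1 library could not turn their sign. Fits that changed only the filter, the set of genes, the trend or the block return the same fold change by construction. Kept signs are therefore no separate support for the 6. The fit of genes without repeated values held 6 of the 29, and rrp8, ddx21, nolc1, mrto4 and nmd3 were among the 23 it did not hold. None of the 6 with an unadjusted p under 0.05 stayed under that limit in all 4 fits that left out a library. The remaining 8 of the 29 turned. Las1l was at -0.15 and nvl at -0.0084 after quantile normalization, and nvl at -0.020 after median centring. When 1 library was left out, the log2 fold change ran from -0.24 to 0.35 for bop1, -0.047 to 0.058 for nvl, -0.20 to 0.41 for ddx10, -0.14 to 0.13 for ddx18, -0.0049 to 0.24 for las1l, -0.00051 to 0.37 for pes, -0.34 to 0.072 for rsl24d1 and -1.13 to 0.15 for gnl3l. Ranges were -0.26 to -0.014 for eif6, 0.12 to 0.36 for lsg1, 0.078 to 0.25 for sbds, -0.22 to -0.066 for npm1a and 0.077 to 0.21 for ncl. A pseudocount of 1 shrinks changes of low ratios by construction, to 0.45 for nsa2 and -0.68 for rrp8. The cause of the other shifts was not tested. The genotypes share replicate numbers, but no label pairs them, and deviations of same-numbered libraries correlated at 0.0097 over genes; with a replicate block 0 genes passed and 4 factors had an unadjusted p under 0.05, against 6 without it. The planned search of promoters was not run. The depth behind every ratio is unknown.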

Other observations

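Ratios between factors within a library, for pairs chosen after their values were seen, give values that do not depend on scaling between libraries. Translation efficiency of npm1a was 3.47 and 3.51 times that of ncl in wild-type replicates 1 and 2, and 2.67 and 2.85 times in mutant replicates 1 and 2. Ddx54 was 20.3 and 19.8 times as high as ddx56 in wild type and 12.3 and 12.4 times in mutants. Eif6 stood at 1.67 and 1.73 times sbds in wild type and at 1.29 and 1.36 times in mutants. In these 3 pairs the replicates lay close together and the genotypes did not overlap. Nmd3 was 2.03 and 1.21 times lsg1, its release factor, in wild type and 0.805 and 0.728 times in mutants. Rpf2 was 1.66 and 1.27 times rrs1 in wild type and 1.11 and 0.431 times in mutants, with wide spread between replicates. Las1l was 7.38 and 6.73 times pelp1 in wild type and 10.5 and 8.50 times in mutants. Within the PeBoW complex the genotypes overlapped, pes being 1.31 and 1.62 times wdr12 in wild type and 1.37 and 0.903 times in mutants, and bop1 0.884 and 1.90 times wdr12 against 0.935 and 0.867 times. The genotypes did not overlap in 6 of these 8 pairs, and in 44.8% of all single genes tested. How often ratios of other gene pairs separate the genotypes was not computed. Close replicates do not measure an error in mRNA level that is shared by both libraries of a genotype. Such an error is not removed by taking ratios within a library, and its part in these values was not tested. In npm1a and ncl, ddx54 and ddx56, eif6 and sbds, nmd3 and lsg1, and las1l and pelp1, the log2 fold changes had opposite signs. A shift of those ratios follows from these signs and is no separate result. No test was made of these ratios, since the pairs were picked with their values known.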
